A study of Homo sapiens with 12 samples.

Results

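The genes described here are 40 regulators and components of autophagy and of the lysosome, chosen by name as the rows of 2 deposited count tables, 1 for each neuroblastoma cell line. All 40 were found among the 58735 gene names of each table, and all 40 passed the filter on low counts in every comparison. They were grouped by role into the ATG8 family (5 genes), cargo receptors (7), the ULK1 initiation complex (5), the class III PI3-kinase complex (5), PI3P effectors and lipid transfer proteins (5), the conjugation enzymes (8), the MiT/TFE transcription factors (3) and lysosomal membrane proteins (2). RNA was sequenced from KELLY cells, a MYCN amplified neuroblastoma line, and from SK-N-AS cells, which are MYCN non-amplified. Both lines were kept for 24 h with Erastin, which blocks cystine uptake through the antiporter system Xc-, or with its vehicle DMSO. KELLY received 1 µM and SK-N-AS received 2 µM, so line and dose cannot be told apart where the responses of the lines are set side by side. Each of the 4 groups held 3 samples, 12 in all, from wells of 1 established line each, and p-values measure the spread between these samples.

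Autophagy encloses cytoplasmic material in a double membrane, the autophagosome, and delivers it to the lysosome for degradation. The ULK1 kinase complex starts the process, the class III PI3-kinase complex marks the forming membrane with PI3P, and WIPI proteins, ATG2 lipid transfer proteins and the conjugation enzymes extend it and attach the ATG8 proteins. Cargo receptors tie ubiquitinated proteins, ferritin complexes or mitochondria to the ATG8 proteins, and transcription factors of the MiT/TFE family drive many autophagy and lysosome genes. In ferroptosis, the iron-dependent cell death that Erastin can induce, autophagic degradation of ferritin is known to release iron.

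KELLY libraries held between 24169796 and 28251514 counts each, and SK-N-AS libraries between 25696149 and 29835670. Levels below are CPM, counts scaled to a common library size with TMM factors over all 12 libraries, and are listed in the order of replicates 1, 2 and 3. MYCN status is given by the study's methods and not by the sample labels. The MYCN transcript had 116651 to 159802 counts in KELLY and 1 to 11 in SK-N-AS. The summed level of 9 adrenergic neuroblast markers was 4270 to 7160 CPM in KELLY with DMSO and 5890 to 11100 CPM with Erastin, where 8 of 9 had a log2 fold change above 0 (4 of 9 with the GC offset described below). In SK-N-AS it was 954 to 1050 CPM with DMSO and 939 to 966 CPM with Erastin. The sum of 8 mesenchymal markers was 238 to 296 CPM in KELLY with DMSO, 238 to 290 CPM with Erastin, 2430 to 2740 CPM in SK-N-AS with DMSO and 2370 to 2390 CPM with Erastin. With DMSO all 9 adrenergic markers were higher in KELLY at an adjusted p under 0.05 (30.9% of all genes). Of the 8 mesenchymal markers, 6 were lower in KELLY at that threshold (30.3% of all genes) and 2 had a log2 ratio above 0. In both lines 7 of these 8 had a log2 fold change below 0 with Erastin, and the part of either list in the results below was not tested. None of these 17 markers was at 0 in a whole group. Of 10 blood cell markers, PTPRC reached 454 to 620 CPM in SK-N-AS and 0 in KELLY, while CD3E and ITGAM were at 0 in all 12 libraries and no other blood marker exceeded 0.7 CPM. Within each group, libraries varied in how far their levels went with GC content. Across 11843 genes, which are not independent, the Spearman rho of a library's log2 level against the mean of its line with GC content was -0.83, 0.70 and -0.47 in KELLY with DMSO. With Erastin it was 0.86, -0.65 and 0.25. The SK-N-AS libraries gave 0.76, 0.26 and -0.73 for DMSO replicates 1 to 3 and -0.30, 0.42 and -0.44 for their Erastin counterparts.

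In SK-N-AS the autophagy genes tended to be higher with Erastin, by small amounts. The 40 genes together took 0.25%, 0.251% and 0.254% of all counts in the DMSO libraries and 0.268%, 0.278% and 0.276% in the Erastin libraries, and these groups did not overlap. The log2 fold change was above 0 for 32 of the 40 genes, beside 7665 of all 16095 genes tested. The median was 0.13 over the 40 genes and -0.01 over all genes. In bulk RNA a lower level per cell and fewer expressing cells cannot be told apart. With edgeR, 0 of the 40 genes passed a Benjamini-Hochberg adjusted p under 0.05, against 0.659% of all genes tested, and with DESeq2 1 did, NBR1 (adjusted p = 0.0119), against 1.58% of the genes to which DESeq2 gave an adjusted p. DESeq2 gave no adjusted p for GABARAP or GABARAPL1. The study methods called genes by an unadjusted p of 0.05 or less with a change of 1.5-fold or more. They used DESeq2 on protein-coding genes. Applied here to edgeR over all genes tested, this 1.5-fold rule called 1 gene, GABARAPL1, against 2.67% of all genes.

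Without the fold limit, 10 of the 40 genes were higher at an unadjusted p of 0.05 or less, against 3.9% of all genes, and 0 were lower, against 4.87%. These 10 genes, singled out after their values were seen, were GABARAPL1, SQSTM1, NBR1, CALCOCO2, BNIP3L, ULK1, ULK2, WIPI1, ATG2B and MITF. In 8 genes, the 10 without ULK1 and ATG2B, all Erastin libraries stood above all DMSO libraries, against 6.98% of all genes, and 0 genes showed the opposite order, against 7.81%. Leaving out DMSO replicate 3 brought 5 genes past an adjusted p under 0.05, namely NBR1, CALCOCO2, BNIP3L, ATG2B and LAMP2, against 5.2% of all genes in that fit.

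**Figure D1:**
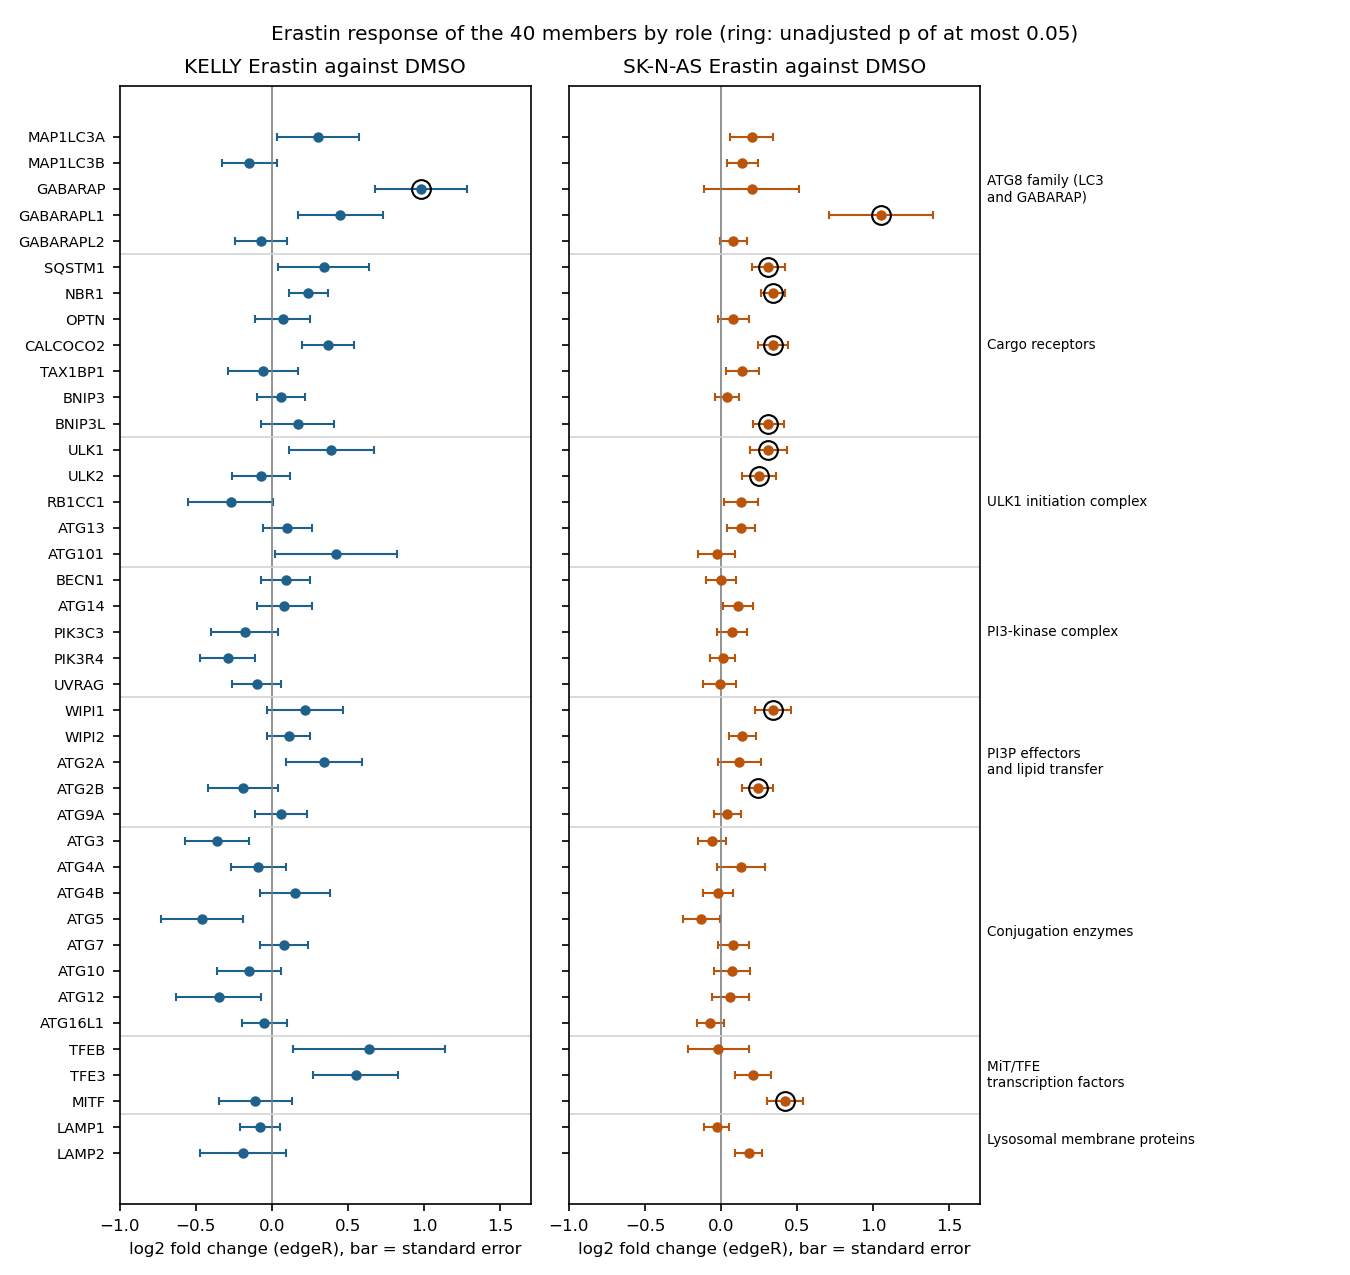
Log2 fold change (edgeR) of the 40 genes with Erastin in KELLY (left) and SK-N-AS (right), ordered by role, with bars of 1 standard error and a ring around an unadjusted p of 0.05 or less. The 10 ringed genes in SK-N-AS all lie above 0, and GABARAP is the 1 ringed gene in KELLY.

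In KELLY the same genes showed no common direction. The log2 fold change was above 0 for 22 genes and below 0 for 18, beside 8211 and 8047 of all 16258 genes tested. The median was 0.06 over the 40 genes and 0.01 over all genes. The share of counts was 0.217%, 0.203% and 0.206% with DMSO and 0.199%, 0.214% and 0.215% with Erastin, and these ranges overlapped. With an adjusted p under 0.05, 0 of the 40 genes were called by edgeR, against 0.00615% of all genes, and 0 by DESeq2, against 0.148%. The 1.5-fold rule called 1 gene, GABARAP, against 2.03% of all genes, and it was also the 1 gene that was higher at an unadjusted p of 0.05 or less, against 1.59%. At that p 0 genes were lower, against 1.06%. The groups did not overlap for 3 genes that were higher with Erastin (GABARAP, NBR1 and CALCOCO2), against 4.2% of all genes, and for 1 that was lower (ATG3), against 4.34%. Without DMSO replicate 2 the 1.5-fold rule called 4 genes, TFE3, GABARAPL1, TFEB and GABARAP, against 5.91% of all genes, and without Erastin replicate 2 it called 2, against 3.79%.

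The difference in response between the lines was tested as an interaction over all 12 samples, and 0 of the 40 genes passed an adjusted p under 0.05 with edgeR, against 0.00548% of all genes. The 1.5-fold rule likewise called 0 genes, against 3.53%, none had an unadjusted p of 0.05 or less, and DESeq2 called 0, against 0.0356%. MITF, which had the smallest p, showed a response that was higher in SK-N-AS by a log2 difference of 0.53 (SE 0.27, adjusted p = 0.811). A gene past a threshold in 1 line is therefore not shown to respond differently in the other. Without KELLY DMSO replicate 2 the 1.5-fold rule called 2 genes, against 9% of all genes. It called 1 without KELLY Erastin replicate 2, against 6.88%, and 1 without SK-N-AS Erastin replicate 1, against 2.89%.

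More of the genes differed between the lines than with Erastin. In the DMSO libraries, 17 of the 40 genes differed at an adjusted p under 0.05, against 61.3% of all genes, and the same 17 passed the 1.5-fold rule, against 57.6%. KELLY was higher for 5 of them (30.9% of all genes) and lower for 12 (30.3%). All 4 cargo receptors that differed, both LAMP genes and TFE3 were lower in KELLY, while 3 ATG8 genes were higher there.

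**Figure D2:**
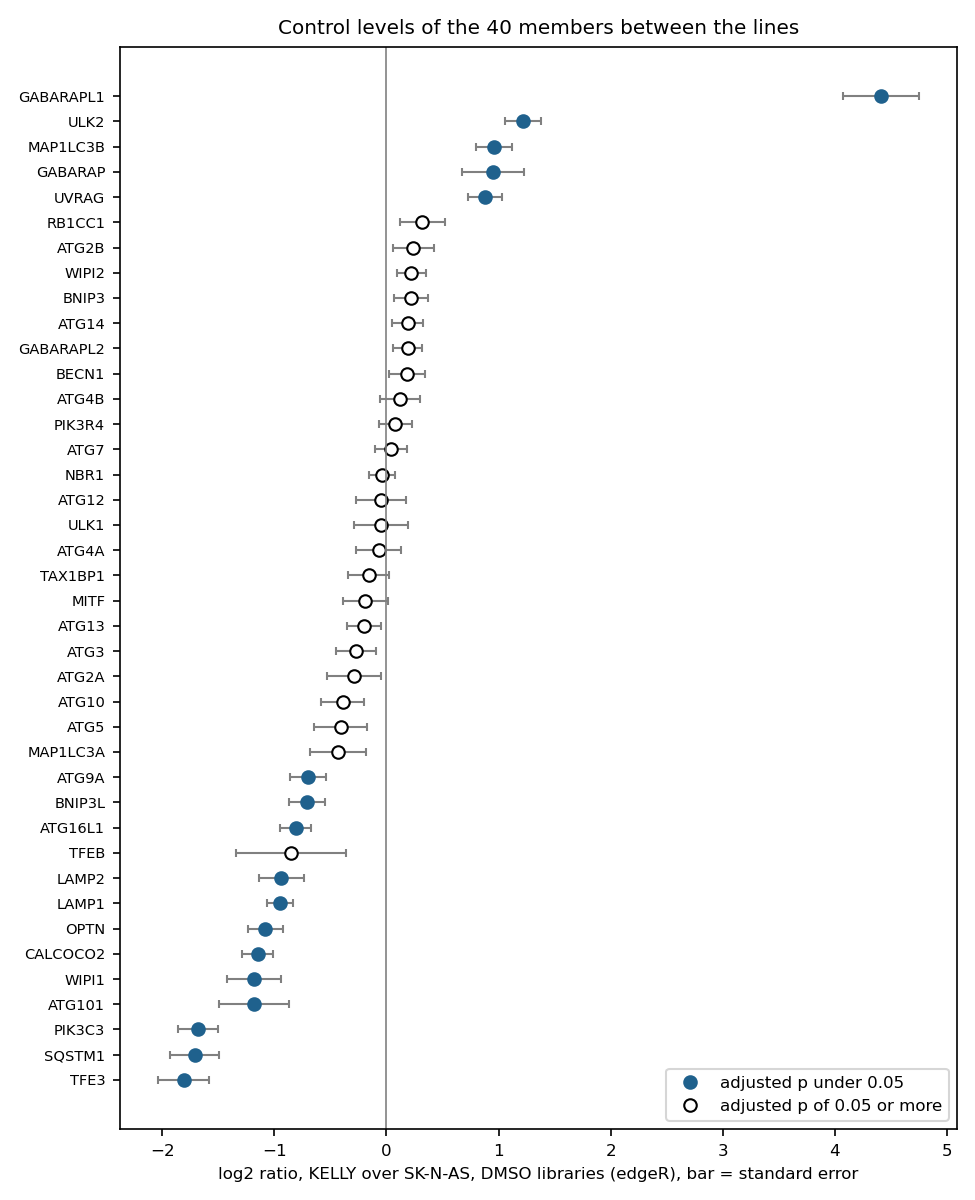
Log2 ratio of KELLY over SK-N-AS in the DMSO libraries (edgeR) for the 40 genes, sorted by size, with bars of 1 standard error; filled points have an adjusted p under 0.05. GABARAPL1 stands at 4.41, apart from the other 39 genes, which lie between -1.81 and 1.22.

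The ATG8 proteins are conjugated to the autophagosome membrane, where they recruit receptors. GABARAPL1 was the member with the largest contrast between the lines. It was close to the floor in SK-N-AS, with 13, 11 and 9 counts in the DMSO libraries (0.479, 0.437 and 0.338 CPM) and 26, 25 and 20 counts in the Erastin libraries (0.959, 0.851 and 0.78 CPM). All 3 Erastin libraries stood above all DMSO libraries, and the fold change was 2.07 (log2 1.05, SE 0.34, adjusted p = 0.312). In KELLY the levels were 6.38, 12.3 and 8.12 CPM with DMSO and 14.7, 11.6 and 10.2 CPM with Erastin. These groups overlapped, and the log2 fold change was 0.45 (SE 0.28, adjusted p = 0.77). With DMSO, KELLY exceeded SK-N-AS by 21.3-fold (adjusted p = 6.81e-06), with no overlap. An antisense gene, GABARAPL1-AS1, shares 8.12% of its exon bases, and since the strand setting of the counting is not given in the sources used here, reads of the pair may not have been separated.

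The promoter of GABARAPL1 is shown because it was the called gene in SK-N-AS and the largest line difference. The window spans 250 bases before to 50 after the annotated start, RefSeq GRCh38.p14, chr12:10212627-10212926, plus strand. None of 3 motifs searched on both strands is in it, namely the CLEAR core bound by MiT/TFE factors (TCACGTG), the ATF4-C/EBP element (TGATGNAA) and the antioxidant response element (TGACNNNGC), so it holds no capitals.
GABARAPL1: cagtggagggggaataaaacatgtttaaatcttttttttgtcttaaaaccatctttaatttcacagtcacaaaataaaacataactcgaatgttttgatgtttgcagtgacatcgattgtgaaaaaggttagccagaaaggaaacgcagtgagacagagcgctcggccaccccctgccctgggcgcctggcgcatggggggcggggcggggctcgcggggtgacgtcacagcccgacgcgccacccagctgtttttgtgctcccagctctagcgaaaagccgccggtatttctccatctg

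GABARAP was the called gene in KELLY. Its counts were low, 47, 60 and 83 with DMSO and 157, 104 and 101 with Erastin, or 1.83, 2.44 and 2.9 CPM and 6.44, 4.03 and 3.66 CPM. With Erastin every library was higher than every control, and the fold change was 1.97 (log2 0.98, SE 0.30, adjusted p = 0.77). In SK-N-AS the levels were 1.47, 1.15 and 1.13 CPM with DMSO and 1.99, 1.43 and 0.858 CPM with Erastin. There the groups overlapped (log2 0.20, SE 0.31, adjusted p = 0.919). KELLY exceeded SK-N-AS with DMSO by 1.93-fold (adjusted p = 0.0172). This call was lost without SK-N-AS DMSO replicate 2 (adjusted p = 0.0707), SK-N-AS DMSO replicate 3 (adjusted p = 0.0624) or KELLY DMSO replicate 3 (adjusted p = 0.0794), and with the replicate block (adjusted p = 0.0626). A protein-coding gene on the same strand (ENSG00000262526) shares 35.4% of the exon bases of GABARAP, and reads in shared exons may not have been assigned to it, so its level is uncertain.

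The other ATG8 genes moved less. MAP1LC3B, which encodes the LC3 protein used as an autophagosome marker, was at 36.2, 40.2 and 43.1 CPM in SK-N-AS with DMSO and at 43.9, 43.6 and 42.8 CPM with Erastin. It was at 88.4, 65.9 and 75.4 CPM in KELLY with DMSO and at 57.7, 76.5 and 72.2 CPM with Erastin. The groups overlapped in both lines, and the adjusted p was 0.786 in SK-N-AS and 0.774 in KELLY. With DMSO it was 1.94-fold higher in KELLY (log2 0.96, SE 0.16, adjusted p = 0.000762). Its near-identical copy MAP1LC3B2 had 36 to 121 counts per library, so some reads of the pair may be split.

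MAP1LC3A was at 9.9, 10.2 and 7.6 CPM in SK-N-AS with DMSO and at 10.4, 11.8 and 9.48 CPM with Erastin. It was at 4.9, 8.82 and 6.65 CPM in KELLY with DMSO and at 10.5, 7.02 and 7.46 CPM with Erastin. Both pairs of groups overlapped, and its line difference did not pass the test (log2 -0.43, SE 0.25, adjusted p = 0.161), though it did without KELLY DMSO replicate 2 (log2 -0.66, adjusted p = 0.0364). GABARAPL2 was at 70.4, 76.4 and 80.1 CPM in SK-N-AS with DMSO and at 73.3, 79.3 and 85.6 CPM with Erastin. In KELLY it was at 91.4, 83.6 and 80.8 CPM with DMSO and at 66.6, 89.8 and 86.2 CPM with Erastin. It showed neither a treatment nor a line difference past the threshold, and its line difference was 0.19 on the log2 scale (SE 0.13, adjusted p = 0.243).

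Per kilobase of exon, GABARAPL2 was the most abundant ATG8 transcript in both lines, with a mean of 28.3 CPM per kb in KELLY and 25.1 CPM per kb in SK-N-AS with DMSO. In KELLY MAP1LC3B followed at 15.2 CPM per kb, MAP1LC3A at 5.89, GABARAPL1 at 2.2 and GABARAP at 1.23. In SK-N-AS MAP1LC3A and MAP1LC3B had like levels, 8.01 and 7.91 CPM per kb, and GABARAP (0.641) stood above GABARAPL1 (0.103). The length used was that of all annotated exons of a gene merged, not of 1 transcript, so this order depends on it. Without it MAP1LC3A and MAP1LC3B were at a mean of 9.23 and 39.8 CPM in SK-N-AS with DMSO, over 1152 and 5037 exon bases. The last 2 places in this order differed between the lines. The place of GABARAP is uncertain, since a same-strand gene shares 35.4% of its exon bases and reads there may not have been assigned to it.

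Of the cargo receptors, 4 of 7 were among the 10 genes in SK-N-AS, and all 7 had a log2 fold change above 0 there, with a median of 0.31. NBR1, a receptor for ubiquitinated proteins, had the smallest p of all 40 genes. It was at 134, 140 and 139 CPM with DMSO and at 162, 176 and 180 CPM with Erastin. Both groups were tight and did not overlap, and the log2 fold change was 0.34 (SE 0.08, adjusted p = 0.107). In KELLY NBR1 was at 141, 130 and 127 CPM with DMSO and at 146, 162 and 160 CPM with Erastin, again without overlap (log2 0.24, SE 0.13, adjusted p = 0.77). Its control levels did not differ past the threshold, with a log2 difference of -0.04 (SE 0.12, adjusted p = 0.79).

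CALCOCO2 encodes NDP52, a receptor for bacteria and mitochondria. It was at 62.3, 70.5 and 77.6 CPM in SK-N-AS with DMSO and at 84.9, 90.3 and 89.3 CPM with Erastin. All Erastin libraries were higher than all controls (log2 0.34, SE 0.10, adjusted p = 0.213). KELLY had 30.2, 32.4 and 31 CPM with DMSO and 32.9, 44.3 and 43.3 CPM with Erastin, also without overlap (log2 0.37, SE 0.17, adjusted p = 0.77). With DMSO KELLY was lower by 2.22-fold (adjusted p = 0.000132). NBR1 and CALCOCO2 were the 2 of the 40 genes that were higher without overlap in both lines, against 0.956% of all genes tested in both.

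The CALCOCO2 promoter is shown for that reason, with the capitals marking 1 match to the antioxidant response element on the minus strand (RefSeq GRCh38.p14, chr17:48830785-48831084, plus strand). That motif was in 13.3% of all 35116 promoter windows of this length and in 8.7% of the 46 windows of the 35 autophagy genes that had one (ATG101, CALCOCO2, LAMP1 and MAP1LC3B).
CALCOCO2: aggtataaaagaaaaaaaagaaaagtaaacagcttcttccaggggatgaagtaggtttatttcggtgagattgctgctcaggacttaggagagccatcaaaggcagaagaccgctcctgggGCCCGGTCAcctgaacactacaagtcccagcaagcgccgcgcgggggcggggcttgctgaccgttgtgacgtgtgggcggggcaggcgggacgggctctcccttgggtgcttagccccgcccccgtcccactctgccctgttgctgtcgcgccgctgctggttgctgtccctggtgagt

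SQSTM1 encodes p62, a receptor that also binds KEAP1, the repressor of NRF2. It was at 141, 137 and 110 CPM in SK-N-AS with DMSO and at 147, 173 and 156 CPM with Erastin, and the lowest Erastin library was close above the highest DMSO library (log2 0.31, SE 0.11, adjusted p = 0.357). In KELLY it was at 29.4, 52.2 and 35.7 CPM with DMSO and at 68.1, 34.9 and 44.8 CPM with Erastin. The KELLY groups overlapped widely (log2 0.34, SE 0.30, adjusted p = 0.77). With DMSO SQSTM1 was 3.27-fold lower in KELLY (adjusted p = 0.000187). MRNIP on the opposite strand shares 21% of its exon bases.

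BNIP3L, the mitophagy receptor NIX, was at 65, 70.5 and 80.1 CPM in SK-N-AS with DMSO and at 88, 84.8 and 92.4 CPM with Erastin. The groups did not overlap (log2 0.31, SE 0.10, adjusted p = 0.287). In KELLY they did, at 50.6, 38.6 and 41.2 CPM and at 33.9, 59.3 and 53.5 CPM. Its relative BNIP3 showed a log2 fold change of 0.04 in SK-N-AS and of 0.06 in KELLY. OPTN (0.08 and 0.07) and TAX1BP1 (0.14 and -0.06), receptors for ubiquitinated cargo, did not pass either rule. With DMSO, OPTN (log2 -1.08, SE 0.16) and BNIP3L (log2 -0.71, SE 0.16) were lower in KELLY, while BNIP3 and TAX1BP1 did not differ past the threshold.

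**Figure D3:**
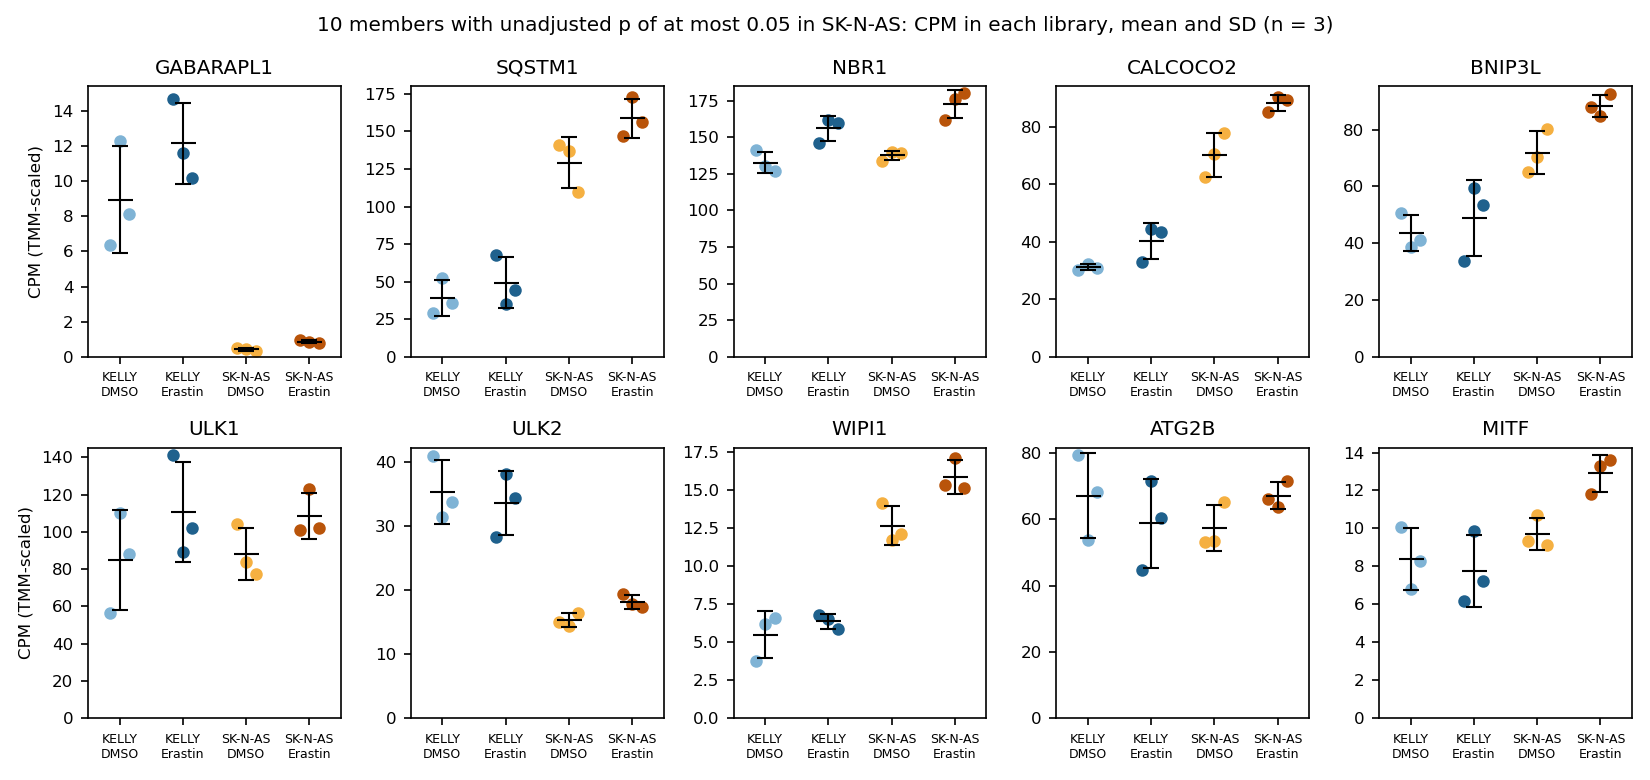
CPM (linear axes from 0) in each library for the 10 genes with an unadjusted p of 0.05 or less in SK-N-AS; points are libraries, bars the mean and SD of 3. The Erastin points of SK-N-AS lie above its DMSO points in 8 panels and overlap for ULK1 and ATG2B, and GABARAPL1 is near 0 in SK-N-AS.

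In the initiation complex, both kinases were among the 10 genes in SK-N-AS. ULK1 was at 104, 83.7 and 77.3 CPM with DMSO and at 101, 123 and 102 CPM with Erastin. DMSO replicate 1 lay within the Erastin range (log2 0.31, SE 0.12, adjusted p = 0.443). ULK2 was at 15.1, 14.5 and 16.5 CPM with DMSO and at 19.4, 17.8 and 17.4 CPM with Erastin, without overlap (log2 0.25, SE 0.11, adjusted p = 0.519). In KELLY ULK1 spread from 56.3 to 110 CPM with DMSO and from 89.2 to 141 CPM with Erastin, and ULK2 from 31.4 to 41 CPM and from 28.3 to 38.2 CPM.

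The control level of ULK2 was 2.32-fold higher in KELLY (adjusted p = 0.000226), while that of ULK1 did not differ past the threshold (log2 -0.05, SE 0.24). ATG101, which stabilizes ATG13 in the complex, had 28, 25.8 and 20.6 CPM in SK-N-AS with DMSO and 5.83, 14.9 and 11.9 CPM in KELLY with DMSO. KELLY was thus lower in every library, by 2.26-fold (adjusted p = 0.00994). With Erastin ATG101 was at 23, 25.2 and 24.1 CPM in SK-N-AS and at 21.8, 10.4 and 11.4 CPM in KELLY, overlapping the controls of each line. The scaffold RB1CC1 and the regulatory subunit ATG13 passed neither call rule in any of the 4 comparisons. RB1CC1 was at 154, 96.4 and 116 CPM in KELLY with DMSO and at 66.3, 128 and 110 CPM with Erastin.

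The PI3-kinase complex had the smallest median change of the 8 roles in SK-N-AS. There the log2 fold changes of its 5 genes lay between -0.01 and 0.11, with a median of 0.01, and in KELLY between -0.29 and 0.09. BECN1, the Beclin 1 subunit, was at a mean of 43.8 ± 4.21 CPM with DMSO and 43.6 ± 3.62 CPM with Erastin in SK-N-AS (SD, n = 3). Between the lines, however, PIK3C3, the catalytic subunit VPS34, stood at 26.6, 18.5 and 23.3 CPM in KELLY and at 68.5, 70.8 and 82 CPM in SK-N-AS with DMSO. The groups were far apart, and KELLY was lower by 3.2-fold (adjusted p = 4.74e-05). With Erastin PIK3C3 was at 15.8, 23.7 and 20.9 CPM in KELLY and at 79.9, 71.1 and 79.3 CPM in SK-N-AS.

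UVRAG, which takes the place of ATG14 in the endosomal form of the complex, showed the opposite order. It was at 34, 30.8 and 33.8 CPM in KELLY and at 16.2, 19.1 and 18.9 CPM in SK-N-AS with DMSO, a 1.84-fold difference (adjusted p = 0.000892). With Erastin it was at 27.9, 34.2 and 29.6 CPM and at 18.1, 17.3 and 18.2 CPM. BECN1, ATG14 and PIK3R4, the regulatory subunit VPS15, differed between the lines by 0.18, 0.19 and 0.08 on the log2 scale, none past the threshold.

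WIPI1 and ATG2B represented the PI3P effectors and lipid transfer proteins among the 10 genes. WIPI1, which binds PI3P on the forming membrane, was at 14.1, 11.7 and 12.1 CPM in SK-N-AS with DMSO and at 15.3, 17.1 and 15.1 CPM with Erastin. The groups did not overlap (log2 0.34, SE 0.12, adjusted p = 0.374). In KELLY it was at 3.73, 6.18 and 6.58 CPM and at 6.77, 6.51 and 5.83 CPM, and its control level there was 2.27-fold lower (adjusted p = 0.00223). ARSG on the opposite strand shares 24.4% of the exon bases of WIPI1.

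ATG2B, a lipid transfer protein, was at 53.3, 53.4 and 65.3 CPM in SK-N-AS with DMSO and at 66.3, 63.7 and 71.6 CPM with Erastin. DMSO replicate 3 lay above 1 Erastin library, and the difference was 0.24 on the log2 scale (SE 0.10, adjusted p = 0.532). In KELLY ATG2B was at 79.3, 53.8 and 68.3 CPM with DMSO and at 44.7, 71.5 and 60.4 CPM with Erastin. WIPI2, ATG2A and the membrane protein ATG9A had log2 fold changes of 0.14, 0.12 and 0.04 in SK-N-AS and of 0.11, 0.34 and 0.06 in KELLY, none with an unadjusted p of 0.05 or less. ATG9A was lower in KELLY with DMSO (log2 -0.70, SE 0.16, adjusted p = 0.00454), and 38.8% of its exon bases lie in a same-strand gene as well.

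The 8 conjugation enzymes, which process the ATG8 proteins and attach them to lipid, showed no call with Erastin in either line. Their median log2 fold change was 0.02 in SK-N-AS, with 4 genes above 0 and 4 below, and -0.12 in KELLY, with 2 above and 6 below. ATG3, the E2-like enzyme for ATG8 proteins, was at 67.9, 47.4 and 48.2 CPM in KELLY with DMSO and at 34.6, 46 and 46.8 CPM with Erastin. The groups did not overlap but came within 1 CPM of each other (log2 -0.36, SE 0.21, adjusted p = 0.77). ATG5 had the lowest log2 fold change of all 40 genes in both lines, -0.46 in KELLY (SE 0.27) and -0.13 in SK-N-AS (SE 0.12). With the GC offset described below, ATG5 was at -0.27 and ATG3 at -0.04 in KELLY. There MAP1LC3B was then the lowest, at -0.34. Among these 8, ATG16L1, which directs the ATG12 and ATG5 conjugate to the membrane, was the 1 gene past the threshold between the lines, and it was lower in KELLY (log2 -0.81, SE 0.14, adjusted p = 0.00082).

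Among the MiT/TFE factors, MITF was at 9.35, 10.7 and 9.14 CPM in SK-N-AS with DMSO and at 11.8, 13.3 and 13.6 CPM with Erastin. The groups did not overlap, and MITF had the largest log2 fold change in SK-N-AS after GABARAPL1 (0.42, SE 0.12, adjusted p = 0.22). In KELLY it was at 10.1, 6.83 and 8.29 CPM and at 6.2, 9.85 and 7.21 CPM, groups that overlapped (log2 -0.11, SE 0.24). The control levels of MITF did not differ between the lines past the threshold (log2 -0.19, SE 0.20).

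TFE3 was at 65, 59 and 50.1 CPM in SK-N-AS with DMSO and at 61.9, 77.4 and 60.7 CPM with Erastin, with overlap (log2 0.21, SE 0.12, adjusted p = 0.703). In KELLY it was at 12.6, 22 and 14.5 CPM with DMSO and at 31, 18.1 and 22.9 CPM with Erastin. These groups overlapped as well (log2 0.55, SE 0.28, adjusted p = 0.77). TFE3 had the largest deficit in KELLY with DMSO, 3.51-fold (adjusted p = 0.000154).

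TFEB, the best known regulator of lysosome genes, was the scarcest of the 3 factors, with 19, 90 and 48 counts in KELLY with DMSO (0.739, 3.66 and 1.68 CPM) and 89, 68 and 86 with Erastin (3.65, 2.64 and 3.11 CPM). In SK-N-AS it was at 4.27, 4.17 and 2.59 CPM with DMSO and at 3.94, 3.54 and 3.35 CPM with Erastin. It overlapped between groups in both lines, and neither its response (log2 0.64, SE 0.50 in KELLY) nor its line difference (log2 -0.85, SE 0.49, adjusted p = 0.163) passed the threshold. Both rested on single KELLY libraries. The KELLY response was 0.24 without DMSO replicate 1 and 1.36 without DMSO replicate 2, and without the latter the line difference was -1.57 and passed (adjusted p = 0.00698). It also passed with no filter on low counts (adjusted p = 0.0394) and with the replicate block and GC offset (adjusted p = 0.0465). Per kilobase of exon, TFE3 exceeded TFEB and MITF in both lines, with 13.8 CPM per kb in SK-N-AS and 3.89 in KELLY with DMSO, against 0.547 and 0.301 for TFEB and 1.31 and 1.13 for MITF.

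The lysosomal membrane glycoproteins LAMP1 and LAMP2 were abundant, and both were lower in KELLY. LAMP1 was at 175, 191 and 196 CPM in KELLY and at 372, 374 and 349 CPM in SK-N-AS with DMSO (1.93-fold lower in KELLY, adjusted p = 0.000125). LAMP2, one form of which takes up proteins for chaperone-mediated autophagy, was at 78.3, 46.6 and 58 CPM and at 106, 117 and 131 CPM (1.91-fold lower, adjusted p = 0.00333). With Erastin the log2 fold change of LAMP1 was -0.03 in SK-N-AS and -0.08 in KELLY, and that of LAMP2 was 0.18 (SE 0.09, adjusted p = 0.615) and -0.19 (SE 0.28).

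The LAMP1 promoter is shown because it held the CLEAR core most often, in 6 places, with 1 antioxidant response element overlapping the first (RefSeq GRCh38.p14, chr13:113296989-113297288, plus strand; capitals mark the matches). The CLEAR core was in 3.71% of all promoter windows and in 3 of the 46 windows of the autophagy genes (6.52%), those of LAMP1, ATG3 and ATG14. None of these 3 genes was among the 10 in SK-N-AS, which were picked from these data and include BNIP3L, a gene without a window. Whether the motif goes with the response was not tested. The ATF4-C/EBP element was in 3.62% of all windows and in 0 of the 46. Letters in a window describe the sequence and do not show that a factor is bound.
LAMP1: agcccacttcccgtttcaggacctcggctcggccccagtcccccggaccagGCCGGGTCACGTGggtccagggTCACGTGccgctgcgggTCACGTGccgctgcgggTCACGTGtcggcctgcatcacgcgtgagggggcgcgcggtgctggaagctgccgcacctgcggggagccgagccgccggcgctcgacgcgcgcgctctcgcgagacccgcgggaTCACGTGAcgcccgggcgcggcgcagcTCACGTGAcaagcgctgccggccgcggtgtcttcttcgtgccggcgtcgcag

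In KELLY the size of a response went with the GC content of the gene. Over the 40 genes, which share the same 6 libraries, the log2 fold change and the GC content of the exons had a Pearson r of 0.64 and a Spearman rho of 0.69, given as a description. In SK-N-AS the values were 0.02 and -0.01. When each library's trend with GC content was removed by an offset, the KELLY values became -0.06 and -0.11. The offset takes out such a slope by design, along with any Erastin effect that follows GC content. The biological coefficient of variation in KELLY went from 0.246 to 0.144. In SK-N-AS it went from 0.105 to 0.0577. With the offset the log2 fold change in KELLY was 0.02 for SQSTM1, -0.01 for ULK1 and -0.11 for MAP1LC3A, all GC-rich genes, while it was 0.44 for CALCOCO2 (adjusted p = 0.373), 0.37 for BNIP3L (adjusted p = 0.402) and 0.30 for NBR1 (adjusted p = 0.484). In KELLY 0 of the 40 genes passed an adjusted p under 0.05 with the offset, against 0.16% of all genes.

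In SK-N-AS the fold changes moved little with the offset, but the spread narrowed and 11 of the 40 genes passed an adjusted p under 0.05, all higher with Erastin, against 5.58% of all genes. They were SQSTM1, NBR1, CALCOCO2, BNIP3L, ULK1, WIPI1, ATG2A, ATG2B, TFE3, MITF and LAMP2. The smallest adjusted p was that of SQSTM1 (log2 0.36, SE 0.05, adjusted p = 0.000427), and the adjusted p of GABARAPL1 was 0.0946. Over all genes the calls split into 74 higher and 32 lower without the offset and into 515 and 383 with it. Of the 40 genes, 36 then had a log2 fold change above 0, beside 8822 of all 16095, with a median of 0.14 beside 0.02. In the interaction with the offset, 0 of the 40 genes passed an adjusted p under 0.05. Among all 18239 genes tested there, 13 had a response higher in SK-N-AS and 7 a lower one. Of the 40 log2 differences, 29 were above 0, beside 10239 over all genes. Unlike in the fit without the offset, some had an unadjusted p under 0.05. The smallest was that of ULK1 (log2 difference 0.41, SE 0.10, unadjusted p = 0.00124, adjusted p = 0.269, edgeR). The 11 calls in SK-N-AS and 0 in KELLY therefore do not show that the lines responded differently.

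**Figure D4:**
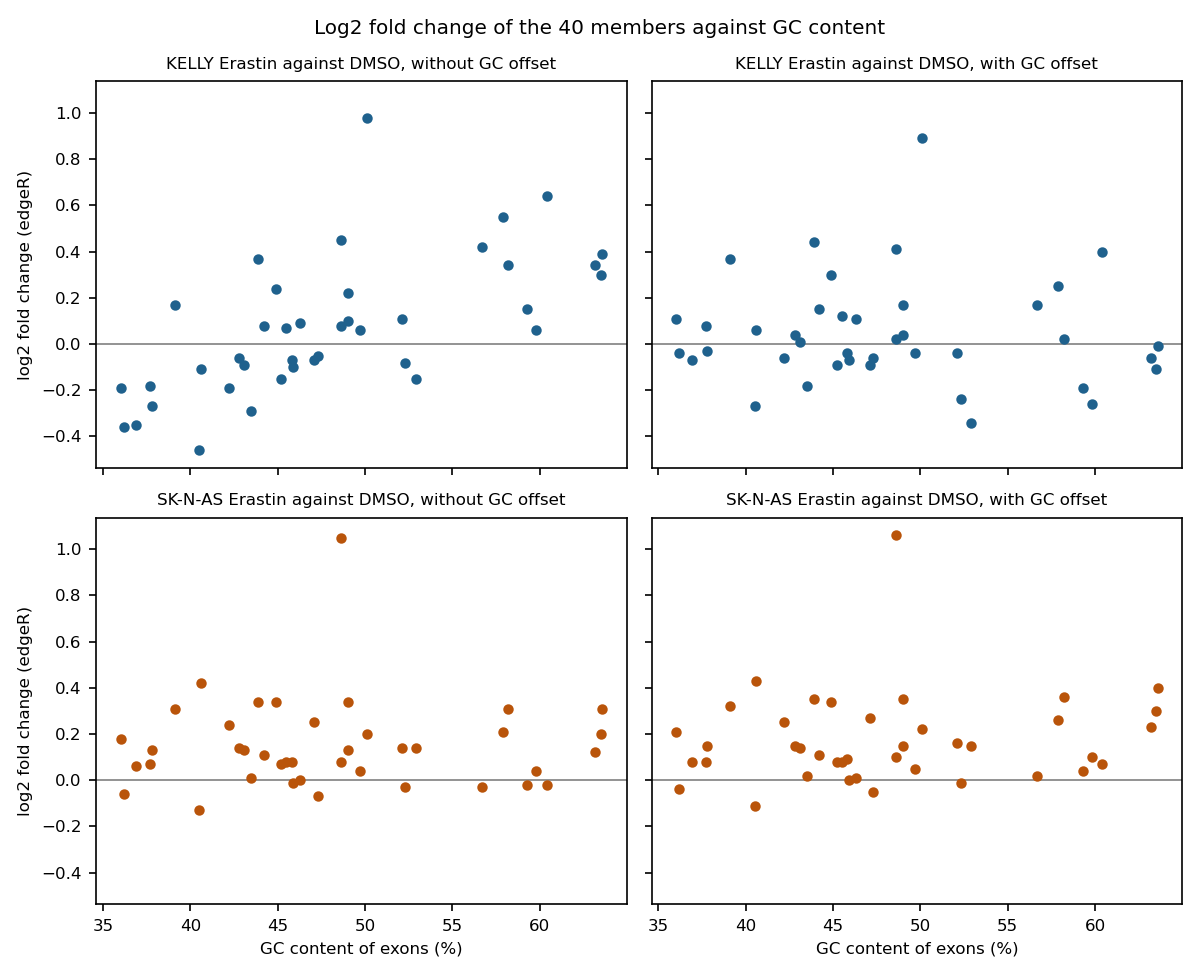
Log2 fold change (edgeR) of the 40 genes against the GC content of their exons in percent, in KELLY (top) and SK-N-AS (bottom), without (left) and with (right) the GC offset; each point is a gene. The offset removes the upward slope in KELLY by design (Pearson r 0.64 without it and -0.06 with it). The points in SK-N-AS lie mostly above 0 in both panels.

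Other genes of the pathway were taken from lists written by function. The genes tested in KELLY and SK-N-AS were, in that order, 32 and 34 lysosomal enzymes and cofactors, 18 and 17 lysosomal membrane and transport proteins, 18 and 18 V-ATPase subunits, 29 and 28 other autophagy genes, and 21 and 21 genes of the nutrient control of TFEB and ULK1. By the adjusted p and by the 1.5-fold rule edgeR called 0 of them in either line, and by the adjusted p DESeq2 called 0 as well. In SK-N-AS the log2 fold change was above 0 for 22 of 34 enzymes, 10 of 17 membrane and transport proteins and 11 of 18 V-ATPase subunits. It was above 0 for 17 of 28 other autophagy genes and 13 of 21 nutrient control genes. The medians were 0.05, 0.10, 0.05, 0.06 and 0.05 in that order, smaller than the 0.13 of the 40 genes. In KELLY 0 of the listed genes had an unadjusted p of 0.05 or less. In SK-N-AS 2 enzymes, 3 membrane and transport proteins, 1 V-ATPase subunit, 3 other autophagy genes and 0 nutrient control genes did. All were higher with Erastin, beside the 3.9% of all genes given above.

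The enzymes were the sialidase NEU1 (29.5 ± 1.93 CPM with DMSO and 36.4 ± 3.59 with Erastin, SD, n = 3) and the fucosidase FUCA1 (log2 0.41, SE 0.16). The membrane and transport group gave the sorting receptor SORT1 (18.9 ± 2.24 and 24.7 ± 0.575 CPM), the channel TMEM175 (log2 0.37, SE 0.13) and the cholesterol carrier NPC2 (log2 0.18, SE 0.08). The V-ATPase subunit was ATP6V0A1 (log2 0.26, SE 0.09). The other autophagy genes were the tethering factor EPG5 (44.1 ± 1.8 and 54.2 ± 2.85 CPM), the PI3P effector WDR45 (log2 0.24, SE 0.11) and the mitophagy kinase PINK1 (log2 0.40, SE 0.18). Their adjusted p lay between 0.202 and 0.55. With the GC offset 4 enzymes, 3 membrane and transport proteins, 2 V-ATPase subunits, 2 other autophagy genes and 0 nutrient control genes passed an adjusted p under 0.05 in SK-N-AS. All were higher, where 3.2% of all genes passed in that direction, and 0 passed in KELLY.

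Between the lines with DMSO, 19 of 33 lysosomal enzymes tested were lower in KELLY and 8 were higher at an adjusted p under 0.05, with a median log2 ratio of -0.76 beside 0.02 over all genes. Of 18 lysosomal membrane and transport proteins 8 were lower and 3 higher, of 18 V-ATPase subunits 4 and 6, of 29 other autophagy genes 9 and 4, and of 21 nutrient control genes 3 and 6. Over all genes 30.3% were lower in KELLY and 30.9% higher. The adrenergic and mesenchymal marker sums given above differed between the lines in the same libraries.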

How the data were processed

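Per the study's methods, 150-base paired-end reads were aligned to GRCh38 and the authors counted reads per gene with HTSeq 2.0.3 on GENCODE 29. The aligner and the strand setting are not given in the sources used here. The deposited values are raw counts without normalization, 1 column per sample, and samples were grouped by their labels. Genes were tested in R 4.3.3 with edgeR 4.0.16 (filterByExpr, TMM, quasi-likelihood test, Benjamini-Hochberg adjustment over all genes tested), 1 fit per line for Erastin against DMSO, 1 for KELLY against SK-N-AS with DMSO, and 1 over all 12 samples for the interaction of treatment and line. Calls used an adjusted p under 0.05 or the threshold of the study's methods, which the study applied to DESeq2 results for protein-coding genes. No 2 replicates were copies.

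GC content and exon lengths, both over all exons of a gene merged, came from GENCODE 44 and covered 87.6% (KELLY) and 88.4% (SK-N-AS) of the tested genes. The GC offset was a loess curve (span 0.5, degree 2) on GC content. It was fitted per library to the log2 level against the mean of all libraries of its line. DESeq2 1.42.0, RLE size factors, no filter on low counts, protein-coding genes alone, a joint fit, a replicate block and leaving out each sample were the alternatives. Values in every sample are given for called genes, the ATG8 family, SQSTM1, the MiT/TFE factors, the 5 largest line differences in each direction, and the genes described with them. The members and lists were chosen with earlier results of these data known.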

Additional observations from a re-analysis of the deposited data

How the results depend on the processing

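In SK-N-AS the count of genes with an adjusted p under 0.05, 0 with edgeR, was 1 with DESeq2, 11 with the GC offset, 2 with the replicate block (1.91% of all genes) and 14 with the replicate block and the GC offset together (8.82%), and 0 to 5 when 1 sample was left out. The 11 genes of the GC offset were all among the 14. In KELLY the count by the 1.5-fold rule, 1, was 0 with the replicate block (0.701% of all genes) and 1 to 4 when 1 sample was left out, and for the interaction, 0, it was 0 to 2. The line difference gave 16 to 24 genes under every alternative, beside 17. With the GC offset 8 of the 40 genes were higher in KELLY and 16 lower. Over all 17089 genes the calls also rose, from 5288 higher and 5185 lower to 6365 and 6120. The labels do not say whether same-numbered samples were paired, and the correlations of their deviations do not decide it. Taken without the GC offset, these correlations were -0.76, -0.79 and -0.12 in KELLY and -0.10, 0.20 and 0.34 in SK-N-AS. Differently numbered samples gave -0.53 to 0.81 in KELLY and -0.43 to 0.34 in SK-N-AS. The highest in KELLY were DMSO replicate 2 with Erastin replicate 1 (0.81) and DMSO replicate 1 with Erastin replicate 2 (0.74). The replicate block in KELLY thus joined same-numbered samples whose deviations were opposed.

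Of the 40 log2 fold changes, 12 turned direction in KELLY with the GC offset, as did 4 in SK-N-AS. In KELLY MAP1LC3A went from 0.30 to -0.11, ULK1 from 0.39 to -0.01, PIK3C3 from -0.18 to 0.08 and MITF from -0.11 to 0.06, and these 4 had the same values with the replicate block and GC offset. The other 8 were ATG2A (0.34 to -0.06), LAMP2 (-0.19 to 0.11), ATG4B (0.15 to -0.19), WIPI2 (0.11 to -0.04), ATG9A (0.06 to -0.26), BNIP3 (0.06 to -0.04), TAX1BP1 (-0.06 to 0.04) and ATG4A (-0.09 to 0.01). When 1 KELLY sample was left out, GABARAPL2 ranged from -0.16 to 0.04, ULK2 from -0.17 to 0.05 and MITF from -0.32 to 0.04. In SK-N-AS the GC offset gave 0.02 for ATG101, 0.00 for UVRAG, 0.07 for TFEB and 0.04 for ATG4B (-0.02 without it), the block with the offset 0.02, 0.01 and 0.07 for the first 3, and the block alone 0.00 for TFEB. When 1 SK-N-AS sample was left out, GABARAP ranged from -0.11 to 0.46, ATG101 from -0.15 to 0.06, UVRAG from -0.08 to 0.04 and TFEB from -0.21 to 0.11. The cause was not tested. Depth limits GABARAP, with 22 to 157 counts per library, GABARAPL1 in SK-N-AS, with 9 to 26, and TFEB, with 19 to 116.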
